A study of Mus musculus with 4 samples.

Results

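A set of 30 genes of inhibitory transmission was read in ribosome-bound RNA of the deep cerebellar nuclei: the subunits of GABA-A, GABA-B and glycine receptors, their scaffold and adhesion partners, and a pair of chloride transporters. They were taken by exact symbol from a list of names, all 30 of which are among the 32531 gene names of the count files. The libraries were made by translating ribosome affinity purification (TRAP), in which chosen cells make the ribosomal protein L10a fused to EGFP and antibodies to EGFP pull down the RNA on their ribosomes. All 4 libraries form 1 group: immunopurified RNA of untreated adult mice transgenic for Slc17a6-EGFP/Rpl10a (line JX883), with 3 mice pooled in each. The line is named for Slc17a6, the vesicular glutamate transporter of nuclear projection neurons, and the labels give neither the extent of the driving sequence nor the strain, the sex or a more exact age. With no input RNA, second genotype or treatment to compare, the data give levels of genes, their ratios within each library, and how 1 library departs from the rest, but no enrichment. The labels do not say whether the pools share mice or a day of preparation, so each p-value measures only how these 4 libraries vary, which may be technical.

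The neurons of the deep cerebellar nuclei carry the output of the cerebellum and receive dense inhibitory input from Purkinje cells, which release GABA, and further input from local GABA and glycine neurons. GABA-A and glycine receptors are pentameric chloride channels. A GABA-A receptor usually combines alpha and beta subunits with a gamma, delta, epsilon or theta subunit, and a glycine receptor combines alpha subunits with the beta subunit, which binds the scaffold protein gephyrin. GABA-B receptors are G protein-coupled dimers that open potassium channels and close calcium channels, and the chloride gradient that sets the sign of the channel response is kept by the exporter encoded by Slc12a5 and the importer encoded by Slc12a2.

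Gene counts totalled 9621762, 10306407, 10436291 and 10988373 in replicates 1 to 4, and 0 counts allow a level of up to 0.312, 0.291, 0.287 and 0.273 CPM (counts per 1000000), that of 3 counts. CPM serves to compare 1 gene between libraries. To compare genes, counts were divided by the length of all exons of the gene and scaled to 1000000 per library, here called TPM. Rn45s, the ribosomal RNA precursor, took 4.99, 14.2, 13.6 and 4.92% of counts, which lowers every CPM of replicates 2 and 3; it has no exon length here and does not enter TPM. Slc17a6 stood at 2237, 2011, 2014 and 2309 CPM, and all 8 markers of glutamatergic nuclear neurons reached 1 CPM in every library. Markers of other cells were present too: all 9 granule cell markers and 7 of 9 Purkinje cell markers reached 1 CPM in every library, with summed levels of 903 to 2104 CPM and 1377 to 3726 CPM, both highest in replicate 3. In bulk RNA, fewer cells of a type and less RNA per cell cannot be told apart.

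Of the 30 members, 25 reached 1 CPM in every library (83.3%), against 76.3% of the 14295 genes with an exon length and at least 10 counts in 1 library. The members had a median mean level of 47.6 TPM, against 19.5 TPM over those genes. The highest were Glrb at 360 ± 87.4 TPM (SD, n = 4), Gabbr1 at 331 ± 63.9 TPM, Slc12a5 at 308 ± 23.7 TPM and Gabrb2 at 248 ± 66.3 TPM. The lowest were Gabrr2 at 3.01 ± 3.48 TPM and Gabrr1 at 1.32 ± 2.64 TPM, the rho subunits known from the retina, each with no count in at least 2 libraries. In the order of mean level most neighbours could not be separated: 27 of 29 neighbouring pairs overlapped in their ranges over libraries. The exceptions were Gabrb2 over Iqsec3 and Gabrg1 over Glra3, which kept their order in 4 of 4 libraries. With the longest transcript as the length, no member moved by more than 3 places.

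**Figure D1:**
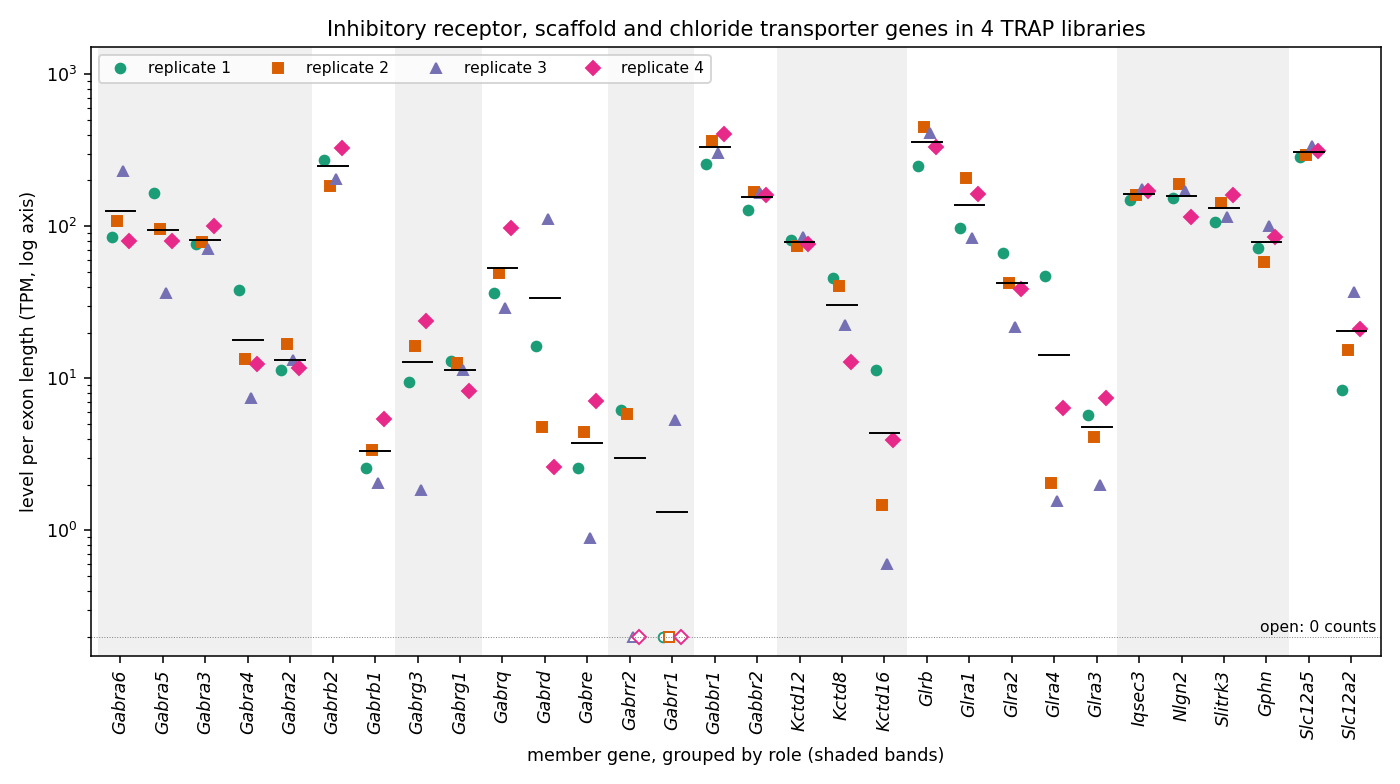
Level of each member in each of the 4 libraries in TPM on a log axis, with members grouped by role in alternating bands and ordered by mean level within a band; the horizontal bar is the mean of 4 libraries and an open symbol marks 0 counts. Glrb, Gabbr1, Slc12a5 and Gabrb2 stand highest, and Gabrd, Glra4, Gabrg3 and Kctd16 spread the most among genes with counts in every library.

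Several of the GABA-A subunit genes lie side by side in the genome, and their promoters are shown first because the genes of 1 cluster stood at very different levels. Sequences are those of RefSeq on GRCm38.p6, the build called mm10 in the submitters' processing notes, from 250 bases before to 50 bases after the first base of the transcript, 5′ to 3′ on the strand of the gene. Capitals mark each CG dinucleotide and each TATAAA on either strand (TTTATA where it lies on the other strand). On the X chromosome, Gabre (epsilon, chrX:72274672-72274971, minus strand), Gabra3 (chrX:72656870-72657169, minus strand) and Gabrq (theta, chrX:72824928-72825227, plus strand) lie within 587 kb.
Gabre: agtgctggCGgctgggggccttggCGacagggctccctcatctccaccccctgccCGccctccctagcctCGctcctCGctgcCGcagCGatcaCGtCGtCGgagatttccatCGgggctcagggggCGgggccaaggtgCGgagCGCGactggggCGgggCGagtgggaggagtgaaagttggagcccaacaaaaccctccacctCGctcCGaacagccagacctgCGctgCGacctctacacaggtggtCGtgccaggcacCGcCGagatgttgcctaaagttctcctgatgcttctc
Gabra3: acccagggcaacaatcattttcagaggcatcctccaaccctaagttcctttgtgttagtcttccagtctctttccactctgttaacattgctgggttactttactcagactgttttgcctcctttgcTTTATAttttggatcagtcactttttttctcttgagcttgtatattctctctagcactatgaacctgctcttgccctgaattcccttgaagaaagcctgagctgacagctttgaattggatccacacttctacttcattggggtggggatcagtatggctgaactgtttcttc
Gabrq: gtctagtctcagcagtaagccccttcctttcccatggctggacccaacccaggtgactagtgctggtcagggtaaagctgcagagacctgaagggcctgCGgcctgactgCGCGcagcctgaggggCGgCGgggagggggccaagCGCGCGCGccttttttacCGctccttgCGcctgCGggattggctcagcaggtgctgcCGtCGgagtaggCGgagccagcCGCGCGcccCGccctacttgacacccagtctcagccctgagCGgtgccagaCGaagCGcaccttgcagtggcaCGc
The promoter of Gabre holds 24 CG dinucleotides and that of Gabrq 23, while the first listed window of Gabra3 holds 0 and has TATAAA on the other strand. On chromosome 11, Gabra6 (chr11:42321023-42321322, minus strand) and Gabrb2 (chr11:42420190-42420489, plus strand) lie within 323 kb and point away from each other.
Gabra6: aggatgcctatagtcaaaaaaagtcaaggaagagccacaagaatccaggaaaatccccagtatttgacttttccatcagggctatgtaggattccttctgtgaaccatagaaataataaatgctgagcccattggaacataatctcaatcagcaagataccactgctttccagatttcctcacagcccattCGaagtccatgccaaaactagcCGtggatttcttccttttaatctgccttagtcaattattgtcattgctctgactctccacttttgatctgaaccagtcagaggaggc
Gabrb2: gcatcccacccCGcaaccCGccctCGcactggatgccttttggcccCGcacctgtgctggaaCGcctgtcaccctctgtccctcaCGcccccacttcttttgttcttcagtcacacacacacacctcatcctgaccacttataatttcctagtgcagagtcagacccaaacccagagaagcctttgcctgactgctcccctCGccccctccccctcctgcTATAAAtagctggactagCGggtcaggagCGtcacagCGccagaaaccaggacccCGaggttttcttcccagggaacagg
The window of Gabra6 holds 2 CG dinucleotides, and the first of the listed windows of Gabrb2 holds 11 and a TATAAA. A window was found for 26 members, with a median of 13.5 CG dinucleotides over the first window of each, against 20 over the 10793 tested genes with a window and 7 over the 27025 genes of the table. At most 5 CG dinucleotides were found in 5 of 26 member windows, against 10.5% of tested genes. TATAAA on either strand was found in 3 of 26 member windows against 7.0% of tested genes, and GGGCGG on either strand, which contains 1 of the counted CG dinucleotides, in 17 of 26 against 63.5%. A match of letters is a description of the window and not a site.

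The 3 genes of this X-linked cluster differed widely in level but shared the library in which they were highest. Gabra3 stood at 75.9, 79.2, 70.6 and 100.3 TPM in replicates 1 to 4, Gabrq at 36.2, 49.3, 29.0 and 97.6 TPM and Gabre at 2.55, 4.44, 0.887 and 7.07 TPM. All 3 were highest in replicate 4, as were 23.6% of the tested genes, and lowest in replicate 3; Glra2 and Glra4, elsewhere on the X chromosome, were highest in replicate 1. Gabrq ranged from 11.1 to 32.7 times the level of Gabre and from 0.411 to 0.973 times that of Gabra3. In the other clusters no replicate was highest for every gene. On chromosome 5 (70751047 to 72149037), Gabrg1, Gabra2, Gabra4 and Gabrb1 had means from 3.35 TPM (Gabrb1) to 17.8 TPM (Gabra4). Gabra4 and Gabrb1 overlap by 46 exon bases on opposite strands, and no source used here says whether strand was used in counting, so reads there may not be separated. On chromosome 7 (56716465 to 57510059), Gabra5 had 3.39 to 19.8 times the level of its neighbour Gabrg3, and on chromosome 4 (33062999 to 33163588) the rho genes had counts in different libraries.

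**Figure D2:**
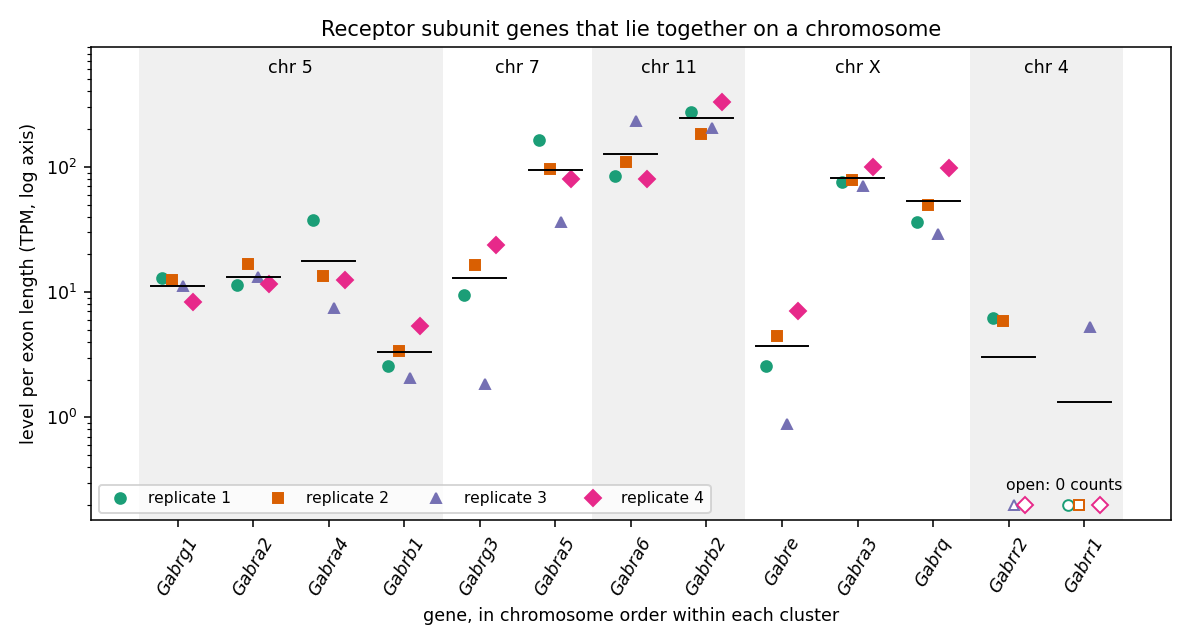
Level in TPM (log axis) of the receptor subunit genes of 5 chromosomal clusters, 1 symbol per library, with the bar at the mean of 4 libraries and open symbols for 0 counts. The 3 genes on the X chromosome range from a mean of 3.74 TPM (Gabre) to 81.5 TPM (Gabra3) and are each highest in replicate 4.

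Among the 5 alpha subunit genes read here, Gabra6, Gabra5 and Gabra3 made up most of the summed level, and their order changed from library to library. Gabra6, which encodes the subunit typical of cerebellar granule cells, stood at 84.3, 109, 232 and 79.4 TPM in replicates 1 to 4. Gabra5, known for receptors outside synapses in the hippocampus, stood at 165, 96.1, 36.5 and 80.3 TPM. Gabra6 was thus highest where Gabra5 was lowest, in replicate 3, and Gabra5 was highest in replicate 1. As a share of the summed alpha level, Gabra6 made up 37.4 ± 18.7%, from 22.5% in replicate 1 to 64.5% in replicate 3, Gabra5 28.3 ± 13.96%, from 10.1% to 44.1%, and Gabra3 25.1 ± 7.24%, from 19.6% to 35.3%. Gabra4, which in the thalamus forms receptors with the delta subunit, stood at 37.9, 13.3, 7.42 and 12.5 TPM, and Gabra2 at 11.3, 16.9, 13.2 and 11.7 TPM. Gabra4 was highest in replicate 1, and Gabra2 varied least of the alpha genes, with a coefficient of variation (CV) of 16.3% over the CPM of the 4 libraries. The summed alpha level itself ranged only from 284 to 375 TPM.

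Of the beta subunit genes read, Gabrb2 made up 98.7 ± 0.435% of the summed level. It stood at 275, 184, 203 and 328 TPM, and Gabrb1 at 2.59, 3.37, 2.05 and 5.39 TPM, so that Gabrb2 was 54.6 to 106 times higher within a library. Gabrb2 served as the reference for the GABA-A genes, since a beta subunit is part of most GABA-A receptors. Each gene was compared with it within a library, as a difference in log2(TPM + 0.5), with limma's moderated test over 14294 genes and Benjamini-Hochberg adjustment. All 13 other GABA-A and rho genes were lower than Gabrb2, but so were 89.1% of all genes, so the count says little about these genes. The smallest difference was that of Gabra6, at -1.08 ± 1.004 (SD, n = 4; limma, adjusted p = 0.0456), lower in 3 of 4 libraries and higher in replicate 3. It lost the call without replicate 1 (adjusted p = 0.171), replicate 2 (0.0793) or replicate 4 (0.139), and with a pseudocount of 0.1 (0.0633). Gabra5 differed by -1.54 ± 0.84 (adjusted p = 0.00659) and Gabra3 by -1.57 ± 0.27 (adjusted p = 0.00166), both in 4 of 4 libraries by the same test. These SDs are of the 4 libraries, while limma draws the variance toward a value common to all genes.

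Levels of the gamma, delta, epsilon, theta and rho genes read here ranged from a mean of 1.32 TPM (Gabrr1) to 53.0 TPM (Gabrq), with CVs from 22.8% (Gabrg1) to 149% (Gabrd) among those with counts in every library. Gabrq, the theta subunit known from hypothalamic and monoamine neurons, made up 46.1 ± 21.6% of their summed level, and Gabrd, the delta subunit of receptors outside synapses, 24.0 ± 31.3%. Gabrd stood at 10.1, 2.62, 58.2 and 1.46 CPM in replicates 1 to 4, from 97, 27, 607 and 16 counts. Replicate 3 stood apart, and the levels in replicates 2 and 4 rested on few counts. Its ratio to Gabra6, with which the delta subunit pairs in granule cells, was 0.193, 0.0443, 0.477 and 0.0331 in TPM. Gabrg3 stood at 24.4, 37.0, 4.02 and 54.5 CPM and Gabrg1 at 21.9, 18.6, 16.2 and 12.6 CPM. Gabrg3 was thus lowest in the library where Gabrd was highest, and Gabrg1 spanned 1.75-fold. Gabrr1 had 23 counts in replicate 3, 2.20 CPM with an exact 95% Poisson interval of 1.40 to 3.31 CPM, and 0 counts in the other libraries. Gabrr2 had 27 and 24 counts in replicates 1 and 2, at 2.81 and 2.33 CPM, and 0 in replicates 3 and 4. These intervals cover counting error only.

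**Figure D3:**
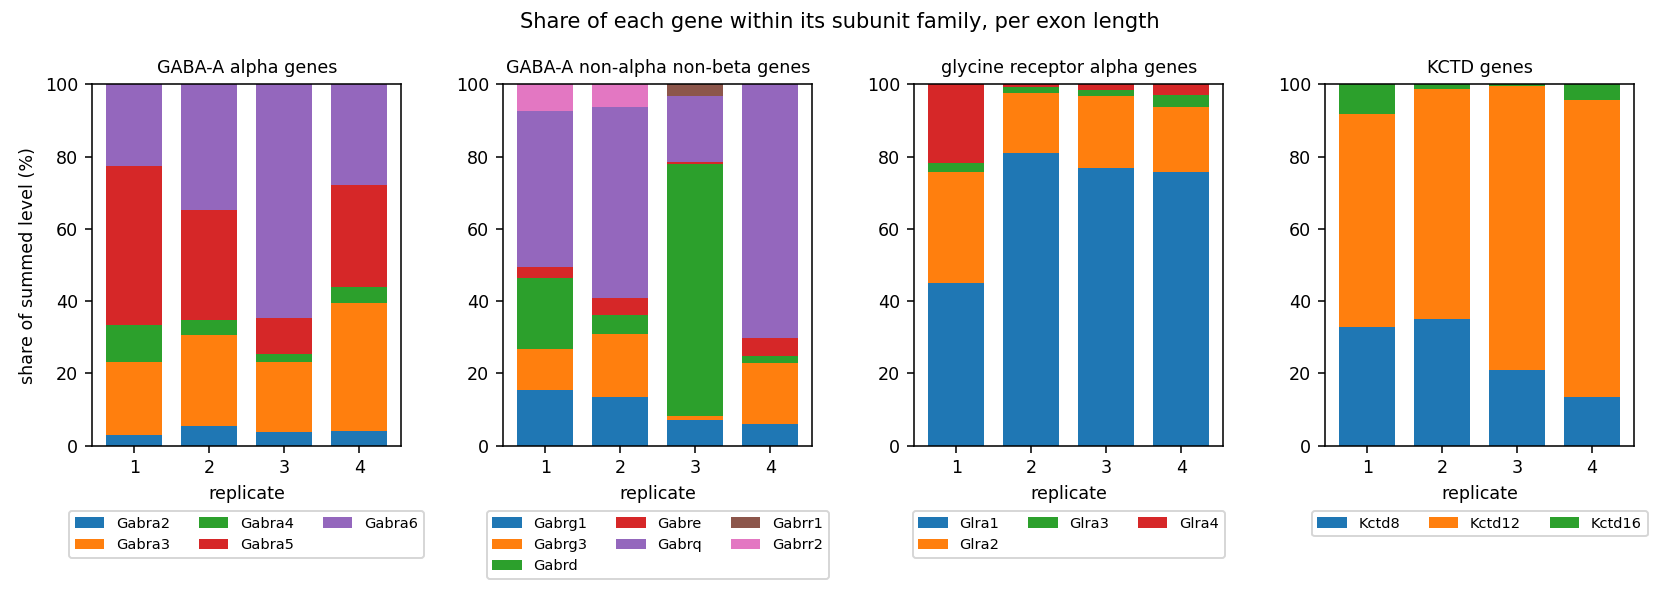
Share of each gene in the summed level (TPM) of the genes read in 4 subunit families, in percent, 1 stacked bar per replicate. Gabra6 makes up 22.5% of the alpha genes in replicate 1 and 64.5% in replicate 3, Gabrd makes up 69.6% of the second family in replicate 3, and Glra1 makes up 45.0% of the glycine receptor alpha genes in replicate 1 and at least 75.8% in the others.

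Among glycine receptor genes, Glrb was the highest and Glra1, the alpha subunit of adult brainstem and spinal cord receptors, the second. Glrb stood at 250, 449, 407 and 332 TPM in replicates 1 to 4 and Glra1 at 97.8, 207, 83.3 and 164 TPM. The beta gene exceeded Glra1 in every library, 2.02 to 4.89 times, with the largest ratio in replicate 3. The difference of Glra1 from Glrb was -1.44 ± 0.58 (limma, adjusted p = 0.00348), and all 5 genes compared with Glrb were lower, as were 93.5% of all genes. Among the alpha genes, Glra1 made up 69.7 ± 16.6% of the summed level, Glra2, the alpha subunit of the fetal brain and cord, 21.2 ± 6.44%, Glra4 6.72 ± 10.04% and Glra3 2.38 ± 0.83%. Replicate 1 departed from the others in this family: there Glra1 made up 45.0%, Glra2 30.6% and Glra4 21.7%.

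Glra2 stood at 45.0, 25.03, 12.5 and 23.4 CPM, highest in replicate 1 and lowest in replicate 3. Glra4 stood at 20.4, 0.776, 0.575 and 2.46 CPM, from 196, 8, 6 and 27 counts, and the values of replicates 2 and 3 rested on few counts. Glra3, known from the dorsal horn of the spinal cord, stood at 11.3, 7.18, 3.35 and 13.2 CPM. Against Glra1, Glra2 differed by -1.71 ± 0.79 (limma, adjusted p = 0.00302), Glra3 by -4.73 ± 0.68 and Glra4 by -4.33 ± 2.31, each lower in 4 of 4 libraries, beside 76.3% of all genes that were lower than Glra1. In this fit limma assigned all genes 1 common variance (infinite prior degrees of freedom), so its p-values do not reflect the spread of the gene itself. For Glra4 the 4 differences ran from -1.04 in replicate 1 to -6.35 in replicate 2.

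**Figure D4:**
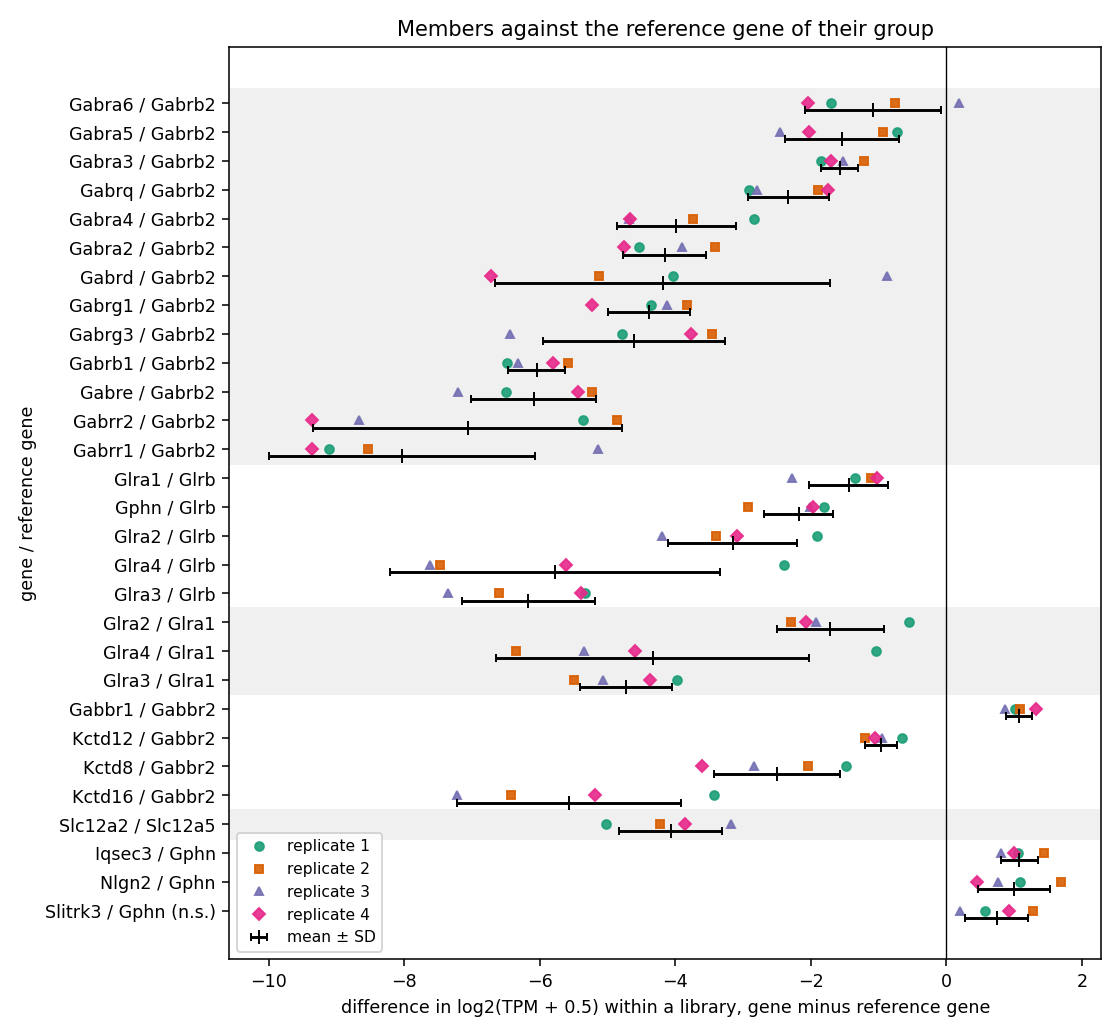
Difference in log2(TPM + 0.5) between a gene and the reference gene of its group within each of the 4 libraries (symbols), with the mean and SD of the 4 as a black bar; n.s. marks the 1 difference not called. Gabra6 crosses 0 in replicate 3, at 0.19, Gabbr1, Iqsec3 and Nlgn2 lie above 0 in every library, and Gabrd, Glra4 and the rho genes spread the most.

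Both GABA-B receptor genes varied by less than 1.5-fold between libraries in CPM. In TPM the range was wider, from 258 to 403 for Gabbr1 and from 127 to 169 for Gabbr2. Gabbr1, whose product binds GABA, stood at 430, 530, 427 and 603 CPM, and Gabbr2, whose product couples to the G protein, at 183, 214, 201 and 207 CPM, with a CV of 6.54%. Per exon length Gabbr1 exceeded Gabbr2 in 4 of 4 libraries, 1.83 to 2.51 times, a difference of 1.07 ± 0.19 (limma, adjusted p = 0.00377), beside 5.06% of all genes that were higher than Gabbr2. Of the KCTD genes, auxiliary subunits that shape the time course of GABA-B responses, Kctd12 stood at 105, 84.4, 93.6 and 89.9 CPM, Kctd8 at 32.9, 25.9, 13.9 and 8.28 CPM and Kctd16 at 8.52, 0.970, 0.383 and 2.64 CPM. Kctd12 was stable, while Kctd8 differed by 3.98-fold and Kctd16 by 22.2-fold between the highest and lowest library, and Kctd8 and Kctd16 were highest in replicate 1. All 3 were lower than Gabbr2, as were 84.6% of all genes, with Kctd12 the nearest at -0.96 ± 0.23 (adjusted p = 0.00678). Exons of Kctd12 overlap those of an antisense gene model over 3805 bases, so its reads may include antisense RNA.

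Scaffold and adhesion genes varied little between libraries, with CVs of 3.41 to 20.2%. Iqsec3, an exchange factor that binds gephyrin, stood at 436, 411, 438 and 445 CPM, the lowest CV of the members on CPM. This rank holds for CPM only: in TPM Iqsec3 stood at 164 ± 11.9 and Kctd12 at 79.1 ± 4.79, a smaller spread for its level. Nlgn2, the adhesion protein of inhibitory synapses, stood at 189, 209, 180 and 129 CPM, and Slitrk3, which assembles inhibitory synapses with a receptor phosphatase, at 111, 131, 102 and 150 CPM. Gphn, which encodes gephyrin, stood at 57.6, 41.4, 68.8 and 61.2 CPM and was the lowest of the 4 per exon length, at 78.8 ± 18.0 TPM. Iqsec3 exceeded it by 1.08 ± 0.27 (limma, adjusted p = 0.0111) and Nlgn2 by 0.998 ± 0.53 (adjusted p = 0.0246), each in 4 of 4 libraries, beside 10.3% of all genes higher than Gphn and 69.4% lower. Slitrk3 was also higher in 4 of 4 libraries, by 0.74 ± 0.46 (adjusted p = 0.0646), and was not called. Without replicate 1 neither Iqsec3 (adjusted p = 0.0529) nor Nlgn2 (0.0912) was called, and without replicate 2 Nlgn2 was not (0.0875).

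Slc12a5, the neuronal chloride exporter, was nearly as steady in CPM as Iqsec3, at 455, 416, 461 and 449 CPM (CV 4.53%). Slc12a2, the chloride importer found in immature neurons and in glia, stood at 19.5, 31.7, 73.7 and 44.5 CPM. The importer was highest in replicate 3 and lowest in replicate 1, so that the ratio of Slc12a5 to Slc12a2 in TPM was 34.2, 19.2, 9.17 and 14.8 in replicates 1 to 4. Slc12a2 was lower than Slc12a5 in 4 of 4 libraries, by -4.07 ± 0.76 (limma, adjusted p = 6.45e-05), beside 93.3% of all genes lower and 1.92% higher than Slc12a5.

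Each library was compared with the other 3 by edgeR's quasi-likelihood test over 11227 genes, 25 of them members. The others, Gabre, Gabrr1, Gabrr2, Kctd16 and Glra4, were left out by the filter on low counts and have no test. No member was called in replicate 1, 2, 3 or 4, where 0.00891, 0, 0 and 0.0534% of all genes were called. At an unadjusted p under 0.05 there were 3, 0, 5 and 1 members, or 12, 0, 20 and 4% of the 25, against 3.78, 0.392, 6.94 and 15.1% of all genes. The lowest p was that of Gabrd in replicate 3, with a log2 fold change of 3.73 ± 0.74 (SE; edgeR, adjusted p = 0.223), which was 4.82 without replicate 1 and 3.32 without replicate 4. Gabrg3 in replicate 3 differed by -3.25 ± 0.75 (adjusted p = 0.285) and Gabrq in replicate 4 by 1.47 ± 0.40 (adjusted p = 0.186), and neither passed. These 3 calls depended on the method: DESeq2 called Gabrd (adjusted p = 0.00725) and Gabrg3 (0.00178) in replicate 3, and edgeR without the filter called Gabrd (7.67e-05), Gabrg3 (0.00776) and Gabrq (0.0216). Over all genes, DESeq2 called 0.191, 0.00891, 0.618 and 3.62% of those with an adjusted p in replicates 1 to 4, and edgeR without the filter 0.171, 0, 0.46 and 2.22%. Over the 6 alternatives the adjusted p ran from 4.57e-06 to 0.209 for Gabrd, from 0.00178 to 0.279 for Gabrg3 and from 0.0216 to 0.208 for Gabrq, with the direction kept in each.

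Of the 30 members, 12 (40%) were at least 1.5 times higher in 1 library than in the next, against 36.3% of the tested genes. In replicate 1 these were Gabra4, Gabra5, Glra2, Glra4 and Kctd16, in replicate 3 Gabra6, Gabrd, Gabrr1 and Slc12a2, and in replicate 4 Gabrb1, Gabre and Gabrq; none was highest in this way in replicate 2. By library, replicates 1 to 4 led 16.7, 0, 13.3 and 10% of the members, against 12.2, 5.27, 10.1 and 8.70% of the tested genes. The same library led each of the 12 in TPM. Marker genes of cell types were set beside them, library by library. In replicate 3, 8 of 9 granule cell markers were at their highest, against 25.1% of the tested genes. The sum of the 9 was 903, 1276, 2104 and 1041 CPM in replicates 1 to 4, with Cbln1 at 270, 558, 724 and 409 CPM and Cbln3 at 210, 236, 444 and 167 CPM. The sum of 9 Purkinje cell markers was 1588, 1950, 3726 and 1377 CPM, with 7 of them highest in replicate 3. Its largest parts were Itpr1, at 591, 796, 1738 and 417 CPM, and Rgs8, at 534, 470, 808 and 617 CPM. The other 2 markers were low: Pcp2 stood at 4.37, 13.0, 9.68 and 0.910 CPM, highest in replicate 2. Pcp4 stood at 0.728, 0.388 and 0 CPM in replicates 1 to 3 and was highest in replicate 4. The sum of 9 markers of astrocytes and Bergmann glia was 299, 345, 592 and 255 CPM, with 6 of them highest in replicate 3. Other sums were highest there too: 8 oligodendrocyte markers summed to 499, 756, 1219 and 1029 CPM, with 5 highest in replicate 3, and 6 markers of inhibitory nuclear and other GABA or glycine neurons to 116, 181, 372 and 73.8 CPM, with 4 highest. Also highest there was the sum of 9 markers of molecular layer interneurons and Golgi cells, at 209, 245, 289 and 211 CPM, with 4 highest. That of 7 microglia markers was 4.16, 6.60, 14.3 and 10.9 CPM, with 3 highest in replicate 3. The oligodendrocyte and microglia sums both had the same library order as Slc12a2, which was looked for after the values were seen. Of these lists only that of microglia held a gene at 0 in every library, C1qa. The part of these cells in the levels of Gabra6, Gabrd and Slc12a2 was not tested.

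In replicate 1, the sum of 5 markers of red nucleus, midbrain and thalamic neurons was 2924 CPM, against 388, 538 and 357 CPM in replicates 2 to 4. Most of this was Tcf7l2, a transcription factor of thalamic neurons among others, at 2486, 22.8, 42.0 and 8.55 CPM, while Rora was at 409, 334, 481 and 310 CPM, and 2 of the 5 markers were highest in replicate 1. The sum of 7 vessel markers was also highest in replicate 1, at 53.4, 14.2, 50.6 and 35.3 CPM, with 3 highest there. In replicate 4, where Gabre and Gabrq were highest, the sum of 8 markers of monoamine and cholinergic brainstem neurons was 116 CPM, but it was 110 CPM in replicate 2 and 14.9 and 20.6 CPM in replicates 1 and 3, and 5 of the 8 were highest in replicate 2 and 3 in replicate 4. Slc18a2, the vesicular monoamine transporter, stood at 8.63, 20.2, 5.08 and 30.5 CPM, and Th, which makes catecholamines, at 2.39, 22.2, 6.52 and 31.6 CPM. Gabre and Gabrq were second highest in replicate 2 as well. The sum of the 8 markers of glutamatergic nuclear neurons was also highest in replicate 4, at 2956, 2501, 2475 and 3014 CPM, with 5 highest there. So was that of 5 oligodendrocyte precursor markers, at 13.8, 27.2, 49.1 and 52.8 CPM, with 3 highest there. The part of these cells in the levels of the members was not tested.

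**Figure D5:**
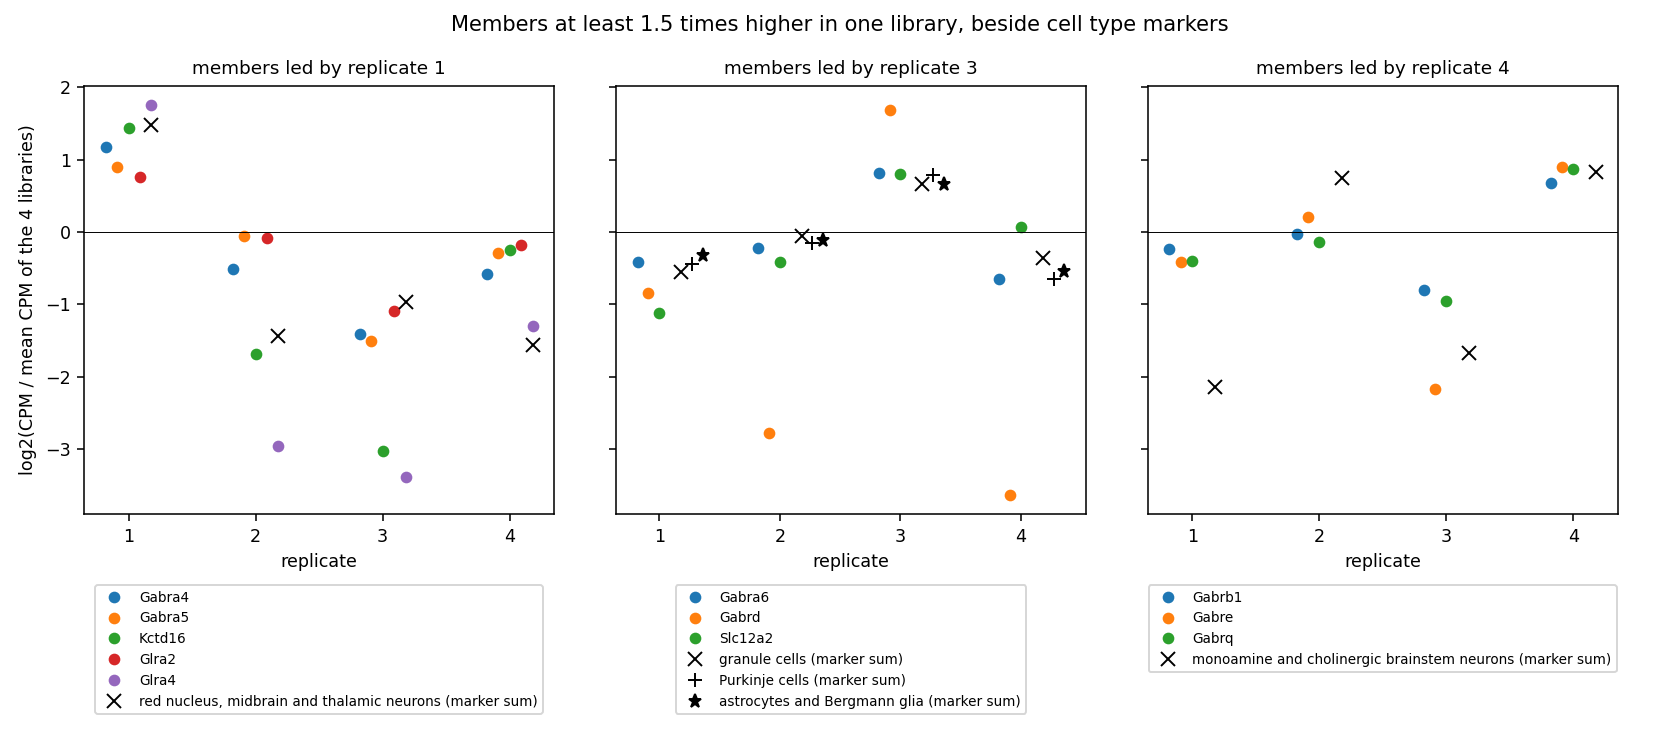
Level of members that were at least 1.5 times higher in 1 library than in the next (coloured), as log2 of CPM over the mean CPM of the 4 libraries, beside summed CPM of marker lists (black) on the same scale; Gabrr1, with 0 counts in 3 libraries, is left out. The marker sums of granule cells, Purkinje cells and astrocytes lie together and are highest in replicate 3, as Gabra6, Gabrd and Slc12a2 are, and the red nucleus, midbrain and thalamic sum is highest in replicate 1.

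Genes that act around the receptors were read from 4 lists. Of 17 genes of GABA and glycine synthesis, loading and uptake, the highest were Glul, glutamine synthetase, at 567 ± 299.9 TPM, and Gcsh and Dld of the glycine cleavage system, at 268 ± 91.5 and 161 ± 12.4 TPM, and the lowest was Slc6a13, a GABA transporter, at 0.448 ± 0.788 TPM. Glul, an enzyme of astrocytes, was at 267, 554, 979 and 468 TPM, highest in replicate 3 with the astrocyte markers. Of 41 genes of receptor trafficking and synapse assembly, 14 were higher than Gphn and 11 lower, against 10.3% and 69.4% of all genes. The highest were Gabarapl1, a relative of the GABA-A receptor-associated protein, at 1306 ± 182 TPM, Nsf, the fusion ATPase, at 730 ± 234 TPM, and Dynll2, a dynein light chain that binds gephyrin, at 727 ± 93.5 TPM, and the lowest was Sntb1, a syntrophin, at 1.33 ± 2.02 TPM. Of 21 effectors and partners of GABA-B receptors, 7 were higher than Gabbr2 and 9 lower, against 5.06% and 84.6% of all genes. The G protein genes Gnb1 (1291 ± 119 TPM), Gnao1 (739 ± 161 TPM) and Gnai1 (705 ± 83.6 TPM) led, and Kcnj5, a G protein-gated potassium channel gene, was the lowest at 14.6 ± 9.94 TPM. Of 24 genes of chloride balance, 22 were tested against Slc12a5 and 20 of these were lower, against 93.3% of all genes. Stk39, a kinase that regulates both chloride transporters, stood at 254 ± 42.1 TPM and was not called (limma, adjusted p = 0.216), Car2, a carbonic anhydrase, stood at 179 ± 118 TPM, and Slc12a3, the sodium chloride cotransporter of the kidney, was the lowest of the 24 at 0.0231 ± 0.0461 TPM and had too few counts for the test. No gene of the 4 lists was called in a comparison of 1 library with the others (edgeR), and at an unadjusted p under 0.05 in any library there were 5 of 13, 11 of 40, 7 of 21 and 8 of 16 tested genes, in the order of the lists above, against 23.7% of all genes tested. DESeq2 called 0 of them in replicates 1 to 3, and in replicate 4 it called 2 of the first list (Gad1 and Slc32a1), 0 of the second, 1 of the third (Kcnj5) and 2 of the fourth (Oxsr1 and Wnk1), beside 359 of all genes (3.62%); these genes are named here after their values were seen.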

How the data were processed

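Ribosome-bound RNA of 4 immunopurified libraries, each pooled from 3 mice, was sequenced. The deposited files hold whole-number counts per gene name, made by the authors; the submitters' processing notes name STAR 2.0.0e, HTSeq and mm10. The annotation, counting mode and strandedness are not given in the sources used. Rows that name no gene, 6 per file, were kept out of totals and tests; reads without a feature were 14.1 to 21.1% of counted reads and reads that were not unique 14.2 to 20.6%. No 2 libraries agreed within sampling noise (chi-square divided by its degrees of freedom, 32.9 to 119). Exon lengths and coordinates came from GENCODE release M21, which gave a length to 73.4% of names and to 93.0% of the 15377 genes with at least 10 counts in 1 library.

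CPM, TPM and shares were computed here from the deposited counts. Each library in turn was tested against the rest in R 4.3.3 by edgeR 4.0.16 (TMM, filterByExpr, robust glmQLFit, glmQLFTest); SEs come from fold changes and F statistics. Genes were set against 6 reference genes with limma 3.58.1 on log2(TPM + 0.5), adjusted over all genes tested. Both are two-sided with a threshold of 0.05. They were also run on simulated data, which varied less between libraries than these do and so give no error rate for them. Alternatives were DESeq2 1.42.0, no filter, other pseudocounts, lengths and filters, totals without Rn45s, and leaving out each library. All members are named; of other lists, the 3 highest genes and the lowest, of marker lists the 2 highest and those at 0 throughout. Pcp2 and Pcp4 were added as the Purkinje cell markers under 1 CPM in a library. Members and lists were chosen with earlier results of these data known. A gene that this rule names is not reported here, and counts over lists still include it.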

Additional observations from a re-analysis of the deposited data

Results flagged for a closer look

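In a group of 4 libraries, a value was singled out when its gap to the nearest other, divided by the whole range, passed Dixon's 95% critical value. This held for 3 of 30 members (10%), against 11.5% of the 14295 tested genes. Chance alone gives about 1 in 20. Gabrd was high in replicate 3, at 58.2 CPM, with a ratio of 0.848. Gabrr1 was high in replicate 3, at 2.20 CPM, with a ratio of 1.0, from 23 counts against 0 in the other libraries. Glra4 was high in replicate 1, at 20.4 CPM, with a ratio of 0.905. Gabra4, high in replicate 1, had a ratio of 0.828 and did not pass.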

How the results depend on the processing

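No difference of a member from its reference gene changed direction under an alternative. Among library comparisons, direction was checked only for the member of lowest p in each library and for members called under some setting. None of these changed direction, and the other member comparisons were not checked. Shares and ratios were not recomputed, and CVs were taken over CPM only. The highest library differed between CPM and TPM for 2 members, Kctd12 and Iqsec3. With the longest transcript as length, neighbours in the order of levels changed places: Slc12a5 and Gabrb2 stood at 288 and 299 TPM (308 and 248 with all exons), and Nlgn2 and Gabbr2 at 124 and 137 TPM (157 and 155). The number of genes called in a comparison of 1 library with the others moved most. In replicate 1 it was 1 in the edgeR fit, 16 with DESeq2, 32 with no filter, and 10 to 56 with another library left out. In replicate 2 it was 0, 1 with DESeq2, and 0 to 2 with a library left out; 44 genes had an unadjusted p under 0.05. In replicate 3 it was 0, 68 with DESeq2, 86 with no filter, and 1 to 20 with a library left out; 779 genes had an unadjusted p under 0.05. In replicate 4 it was 6, 359 with DESeq2, 416 with no filter, and 35 to 173 with a library left out. Members called in replicate 3 were 0, but 2 with DESeq2, 2 with no filter and 0 to 2 with a library left out. In replicate 4 they were 0, but 1 with no filter and 0 to 1 with a library left out. Gabrd in replicate 4 was at -3.92 (log2, adjusted p = 0.446, edgeR), -4.45 without replicate 2 (0.0044) and -1.93 without replicate 3 (0.289). Members called against Gphn ranged from 0 to 3 with a library left out, from 2. Slitrk3 passed against Gphn on CPM (adjusted p = 0.0122, limma), with at least 10 counts in every library (0.0385) and without replicate 3 (0.0474). Of the alternative values of a member against its reference, 274 stayed on the same side of the threshold, 3 gained a call and 7 lost one. The cause was not tested. Without Rn45s in the totals, the mean CPM rose by more than 1 SD for Gabbr2 (223), Kctd12 (103), Iqsec3 (478) and Slc12a5 (493). Depth limits Gabrr1, Gabrr2, Gabre, Kctd16 and Glra4, each at or under 10 counts in at least 1 library. No paired analysis was possible because the samples form 1 group.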
